A study of Homo sapiens with 6 samples.

Results

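Described here are 8 genes of the YAP, TAZ, TEAD and VGLL families, the nuclear end of the Hippo pathway, among 36884 genes in the deposited count table. They were chosen by symbol: YAP1, WWTR1, TEAD1, TEAD2, TEAD3, TEAD4, VGLL3 and VGLL4. Each symbol had a single row, and all 8 were among the 13431 genes that passed the filter on low counts. The cells were RPE1, an immortalized, non-transformed human line of retinal pigment epithelial origin, edited with CRISPR-Cas9 to inactivate both LATS1 and LATS2. They were transfected, with Lipofectamine RNAiMAX, with siRNA against MK5 (3 libraries) or with control siRNA (3 libraries) and collected 48 h later. Both groups carry the LATS1 and LATS2 inactivation, and no library with intact LATS kinases is used here. No source used here says whether the edited line is a single clone or gives the sequences of the siRNAs. Only RNA was measured, so nothing below concerns the amount, phosphorylation or location of the proteins.

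YAP (encoded by YAP1) and TAZ (encoded by WWTR1) are transcriptional coactivators without a DNA-binding domain of their own. They act mainly through the TEAD proteins, which bind DNA at MCAT elements, and the LATS kinases normally phosphorylate both coactivators so that they are held in the cytoplasm or degraded. Vestigial-like (VGLL) proteins also bind TEAD through a short Tondu domain, and VGLL4 competes with YAP for TEAD and represses TEAD targets. MK5, encoded by MAPKAPK5, is a protein kinase of the MAPK-activated family. The comparison asks how the transcripts of these factors differ after MK5 siRNA when the LATS kinases are missing.

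Promoter windows of 300 bases (250 before to 50 after a transcript start) are shown for the member with the largest fall, for the member that rose and for a TEAD gene that did not pass the test. They are from RefSeq, build GRCh38.p14, and are written 5′ to 3′ on the gene's strand. Capitals mark the TEAD motif GGAATG, searched on both strands. YAP1 lies at chr11:102110197-102110496 on the plus strand, VGLL4 at chr3:11720490-11720789 on the minus strand (the most upstream of its 5 windows) and TEAD3 at chr6:35497030-35497329 on the minus strand.
YAP1: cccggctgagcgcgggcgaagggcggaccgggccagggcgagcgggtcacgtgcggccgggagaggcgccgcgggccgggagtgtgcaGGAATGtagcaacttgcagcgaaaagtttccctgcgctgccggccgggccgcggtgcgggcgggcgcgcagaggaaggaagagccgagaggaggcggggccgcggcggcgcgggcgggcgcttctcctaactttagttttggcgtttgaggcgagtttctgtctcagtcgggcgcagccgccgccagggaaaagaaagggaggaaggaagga
VGLL4: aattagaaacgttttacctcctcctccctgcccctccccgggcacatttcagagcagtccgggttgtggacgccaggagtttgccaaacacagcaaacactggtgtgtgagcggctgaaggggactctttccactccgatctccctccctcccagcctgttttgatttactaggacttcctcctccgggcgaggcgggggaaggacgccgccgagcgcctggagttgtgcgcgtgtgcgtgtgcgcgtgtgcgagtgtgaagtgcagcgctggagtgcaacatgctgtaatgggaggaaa
TEAD3: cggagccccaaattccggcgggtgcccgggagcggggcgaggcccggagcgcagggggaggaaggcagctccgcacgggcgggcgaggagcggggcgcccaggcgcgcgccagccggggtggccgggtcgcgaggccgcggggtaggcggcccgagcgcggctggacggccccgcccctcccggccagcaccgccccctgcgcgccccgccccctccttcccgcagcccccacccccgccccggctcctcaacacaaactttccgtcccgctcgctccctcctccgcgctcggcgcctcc

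RefSeq windows were matched for 6 of the 8 genes, 12 windows in all. The TEAD motif occurred in 1 of these 12, that of YAP1, with its first base 162 bases before the start, and 14.03% of 35116 windows of all genes hold it. No member window held the AP-1 motif TGANTCA, which 7.71% of all windows hold, or the cyclic AMP response element TGACGTCA, which 1.85% hold. The CCAAT box (CCAAT, both strands) occurred in 3 of the 12 windows, those of TEAD2 and VGLL3, against 34.6% of all windows. The YAP1 window had 70.7% G and C with 40 CpG dinucleotides, the TEAD3 window 81.3% with 44, and the shown VGLL4 window 59.3% with 20. The median over all windows was 58.7% and 14. The SP1 GC box GGGCGG, searched on both strands and not capitalised above, occurred in 7 of the 12 windows, against 44.95% of all windows. A match is only a run of letters, and the counts per gene do not show which of the VGLL4 starts was used.

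Libraries held between 27188074 and 28188824 counts after MK5 siRNA and between 27594088 and 28236773 counts after control siRNA. Levels below are in CPM, counts scaled to a common library size after TMM normalisation, as mean ± SD over 3 libraries. Fold changes are log2 values, MK5 siRNA over control siRNA, each with its standard error (SE) from the quasi-likelihood model of edgeR. Adjusted p is Benjamini-Hochberg over all 13431 genes, with a threshold of 0.05. In bulk RNA, fewer cells of a kind and less RNA per cell cannot be told apart. The siRNA target MAPKAPK5 was at 17.4, 14.1 and 16.2 CPM after MK5 siRNA, against 35.55, 29.05 and 31.3 CPM after control siRNA (−1.01 ± 0.14, edgeR adjusted p = 0.00169). Of 12 retinal pigment epithelium markers, OTX2 (34.8 ± 0.920 CPM after MK5 siRNA and 32.4 ± 2.60 CPM after control siRNA) and MITF (25.3 ± 3.45 CPM after MK5 siRNA and 54.05 ± 4.08 CPM after control siRNA; edgeR adjusted p = 0.00114) were well measured. The list summed to between 60.6 and 67.7 CPM after MK5 siRNA and between 88.3 and 101 CPM after control siRNA, and 3 of its 7 tested genes fell. The visual cycle genes RPE65 and RLBP1 had at most 2 counts in any library, and TTR had no count. RDH5, also of the visual cycle, averaged 0.856 CPM after MK5 siRNA and 2.53 CPM after control siRNA (edgeR adjusted p = 0.0157). LRAT, of the same cycle, averaged 0.318 and 0.697 CPM and did not pass (edgeR adjusted p = 0.0595). The simple-epithelium list, led by the keratin genes KRT8 and KRT18, summed to between 399 and 590.3 CPM after MK5 siRNA and between 766 and 846 CPM after control siRNA, and 2 of its 4 tested genes fell, while EPCAM had no count. The 9 markers of blood, endothelial, muscle, glial and liver cells summed to between 0.620 and 0.904 CPM after MK5 siRNA and between 0.919 and 1.216 CPM after control siRNA. The part of these marker differences in the results below was not tested. Replicate 1 of the control group stood apart for several of the 8 genes, as their values per library show.

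Of the 8 genes, 4 fell (YAP1, WWTR1, TEAD2 and TEAD4), 1 rose (VGLL4) and 3 did not pass (TEAD1, TEAD3 and VGLL3). Across all genes tested, 46.2% passed in either direction, 22.5% rose and 23.7% fell, so the 62.5% that passed among these 8 genes stands beside a transcriptome in which close to the same share changed as did not. The groups did not overlap in 6 of the 8 genes, against 60.4% of all genes tested. Every MK5 siRNA library lay below every control library in 5 of them, against 29.8% of all genes, and above in 1, against 30.6%. With the replicate number as a block, 6 of the 8 passed, against 47.3% of all genes. In DESeq2 also 6 passed, where 6859 of 22521 genes passed (30.5%), against 6206 of 13431 in the main fit. DESeq2 was run without the filter on low counts, so its share covers a different set of genes than the others. The 22521 are all genes with a DESeq2 p-value. Any that its own filtering left without an adjusted p count as not passed, so this share is not comparable with the others. The median log2 fold change was −0.74 over the 8 genes and 0.00031 over all genes tested. The members' counts ran from 350 to 12131 per library, and counting error lay below the spread between libraries in every member and group except YAP1 after MK5 siRNA.

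**Figure D1:**
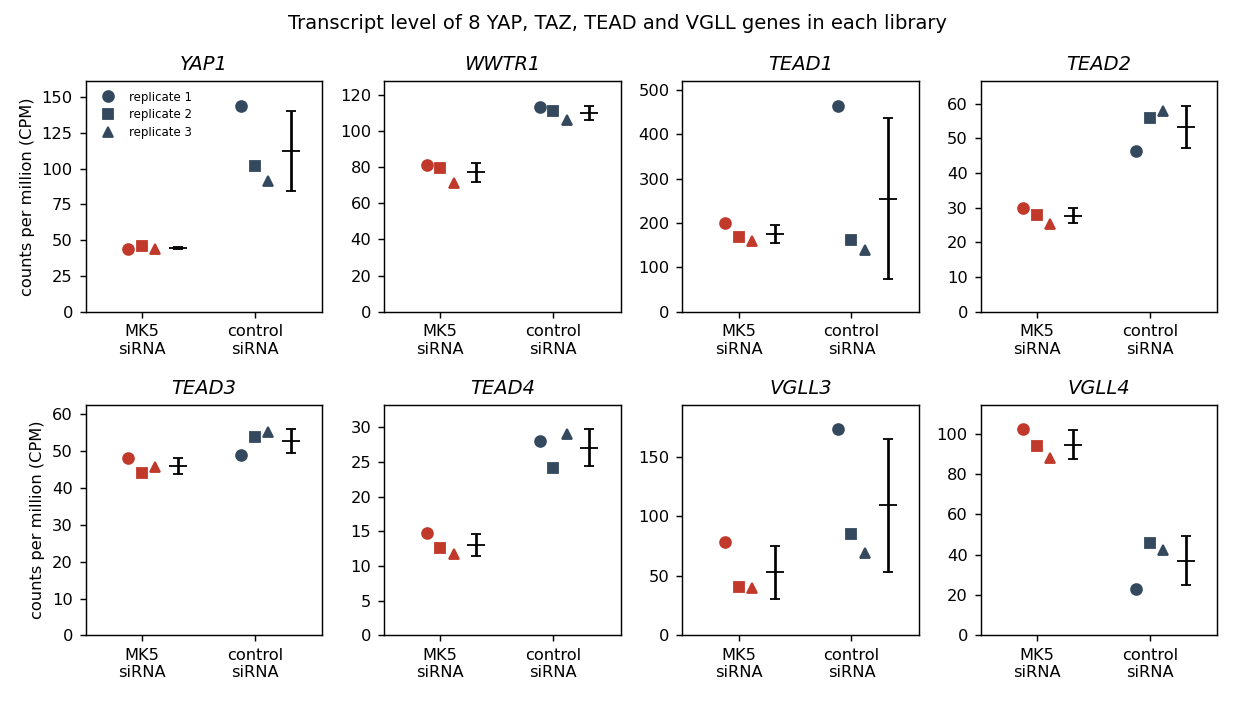
Level of each of the 8 genes in CPM (vertical axis from 0, linear, its own scale per panel) in MK5 siRNA libraries (red, left) and control siRNA libraries (dark, right). Symbols mark replicates 1, 2 and 3, and bars give mean ± SD over 3 libraries; YAP1, WWTR1, TEAD2 and TEAD4 lie lower after MK5 siRNA in every library and VGLL4 higher, while control replicate 1 lies apart in TEAD1 at 465 CPM.

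The coactivator transcripts were both lower after MK5 siRNA. YAP1 (ENSG00000137693) was at 44.0, 45.6 and 43.9 CPM in MK5 siRNA replicates 1, 2 and 3, against 144, 102 and 91.55 CPM in control replicates 1, 2 and 3. The groups did not overlap, and control replicate 1 was the highest library. YAP1 averaged 44.5 ± 0.988 CPM after MK5 siRNA and 112 ± 27.8 CPM after control siRNA, and so fell by 1.34 on the log2 scale (SE 0.18, edgeR adjusted p = 0.00151), a 2.53-fold lower level. After MK5 siRNA the libraries varied by 2.22%, no more than the 2.80% that counting alone gives at this depth, while the control libraries varied by 24.7%, against 1.82% from counting. The difference was −1.70 in replicate pair 1 and −1.15 and −1.05 in pairs 2 and 3, on log2(CPM + 0.5). Among all genes tested, 14.6% had a larger absolute log2 fold change.

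WWTR1 (ENSG00000018408) was at 81.0, 79.6 and 71.0 CPM after MK5 siRNA, against 113, 111 and 106 CPM after control siRNA. The groups were apart, and control replicate 1 lay with the other controls. WWTR1 averaged 77.2 ± 5.41 CPM after MK5 siRNA and 110.2 ± 3.85 CPM after control siRNA, and fell by 0.51 (SE 0.10, edgeR adjusted p = 0.00615). The pairs gave −0.48, −0.48 and −0.57. This is a modest size among these libraries, since 51.1% of all genes tested had a larger absolute log2 fold change.

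The balance between the coactivator transcripts also differed. The log2 ratio of WWTR1 to YAP1 was 0.87, 0.80 and 0.69 in MK5 siRNA replicates 1, 2 and 3, against −0.34, 0.13 and 0.21 in control replicates 1, 2 and 3. Every MK5 siRNA library was higher than every control library. The ratio was higher by 0.79 after MK5 siRNA (two-sided exact permutation test, p = 0.10, the smallest that 3 against 3 libraries can give), and by 1.22, 0.67 and 0.48 within pairs 1, 2 and 3. Without replicate 1 in both groups the difference was 0.57. Per kb of the longest coding transcript, YAP1 made up 35.0 ± 1.48% of the summed coactivator transcripts after MK5 siRNA and 48.3 ± 5.17% after control siRNA (SD, n = 3, exact permutation p = 0.10). The size of this share depends on the lengths used. With merged exon lengths YAP1 averaged 17.9 and WWTR1 13.1 CPM per kb after control siRNA, so that YAP1 was the higher of the pair. After MK5 siRNA YAP1 remained the lower, at 7.07 against 9.175 CPM per kb.

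The TEAD genes encode the DNA-binding partners of the coactivators and differ in the tissues in which each is prominent. TEAD2 and TEAD4 fell, and TEAD1 and TEAD3 did not pass. TEAD2 (ENSG00000074219) was at 29.85, 27.96 and 25.4 CPM after MK5 siRNA, against 46.5, 55.85 and 57.8 CPM after control siRNA. The groups were apart, and control replicate 1 was the lowest control. TEAD2 averaged 27.7 ± 2.22 CPM after MK5 siRNA and 53.4 ± 6.05 CPM after control siRNA, and fell by 0.94 (SE 0.13, edgeR adjusted p = 0.00166), with −0.63, −0.99 and −1.17 in pairs 1, 2 and 3.

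TEAD4 (ENSG00000197905), the member with the fewest counts, was at 14.7, 12.6 and 11.8 CPM after MK5 siRNA, against 28.01, 24.1 and 29.04 CPM after control siRNA. No library of one group reached into the other. TEAD4 averaged 13.03 ± 1.53 CPM after MK5 siRNA and 27.04 ± 2.62 CPM after control siRNA, and fell by 1.05 (SE 0.14, edgeR adjusted p = 0.00168), with −0.90, −0.91 and −1.27 in the pairs. Counting error was 5.19% after MK5 siRNA and 3.71% after control siRNA, below the spread between libraries of 11.8% and 9.70%.

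TEAD3 (ENSG00000007866) was at 48.3, 44.0 and 45.65 CPM after MK5 siRNA, against 49.04, 53.9 and 55.2 CPM after control siRNA. The groups were apart by less than 1 CPM, between MK5 siRNA replicate 1 and control replicate 1. The log2 fold change of −0.20 ± 0.10 did not pass (edgeR adjusted p = 0.158). It was −0.24 without control replicate 1 (edgeR adjusted p = 0.0237), a fit in which 64.4% of all genes passed. Without replicate 1 in both groups it was −0.28 (edgeR adjusted p = 0.00112), where 75.8% of all genes passed.

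TEAD1 (ENSG00000187079) was the TEAD gene with the most counts and the least even controls. It was at 199, 169 and 160.5 CPM after MK5 siRNA, against 465, 161 and 139 CPM after control siRNA. Control replicate 1 lay far above all other libraries, and the remaining 5 libraries overlapped. Control replicate 1 exceeded the mean of the other controls by 1.63 on the log2 scale, a deviation larger in 2.44% of all genes tested. The log2 fold change of −0.53 ± 0.45 did not pass (edgeR adjusted p = 0.359). The direction rested on 1 library: the pairs gave −1.22, 0.07 and 0.21, and the fitted value was 0.24 without control replicate 1 (edgeR adjusted p = 0.0943) and 0.14 without replicate 1 in both groups (edgeR adjusted p = 0.0684).

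**Figure D2:**
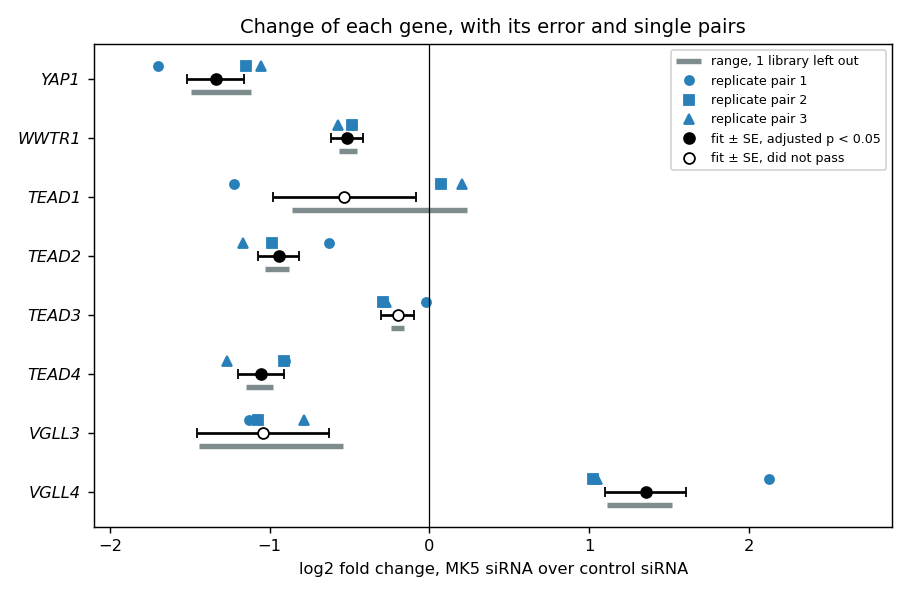
Log2 fold change of each gene (horizontal axis), MK5 siRNA over control siRNA. Circles with bars give edgeR's fit ± SE (filled where the adjusted p is below 0.05), blue symbols the difference within each replicate pair, and grey bars the range when 1 library is left out; the grey bar crosses 0 in TEAD1 and in no other gene.

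A gene that passes beside one that does not is no evidence that they differ, so the TEAD genes were compared with each other as log2 ratios per library, 6 pairs in all. The log2 ratio of TEAD2 to TEAD3 was −0.68, −0.64 and −0.83 after MK5 siRNA, against −0.08, 0.05 and 0.07 after control siRNA. It was lower by 0.61, 0.70 and 0.90 in the 3 pairs, a mean difference of −0.73 (exact permutation p = 0.10, adjusted over the 6 pairs p = 0.30). The log2 ratio of TEAD3 to TEAD4 was 1.68, 1.77 and 1.91 after MK5 siRNA, against 0.80, 1.15 and 0.91 after control siRNA, with a mean difference of 0.83 (exact permutation p = 0.10, adjusted over the 6 pairs p = 0.30). In both ratios the groups were apart. The ratio of TEAD2 to TEAD4 overlapped between groups, with a mean difference of 0.10, and the 3 ratios that involve TEAD1 overlapped as well. In each of these 3, control replicate 1 lay above every MK5 siRNA library and control replicates 2 and 3 below every one. TEAD1 to TEAD2 differed by −0.59, 1.06 and 1.38 in pairs 1, 2 and 3, TEAD1 to TEAD3 by −1.20, 0.36 and 0.48, and TEAD1 to TEAD4 by −0.32, 0.98 and 1.47. With 3 libraries a group, none of these tests could reach 0.05.

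The 4 TEAD transcripts were also summed per kb of the longest coding transcript. The sum was 60.6, 53.6 and 51.6 CPM per kb after MK5 siRNA, against 107, 74.2 and 75.7 CPM per kb after control siRNA. All MK5 siRNA libraries were lower, with a log2 difference of −0.61 (exact permutation p = 0.10, the smallest possible). Without control replicate 1 it was −0.44, and with counts not divided by length it was −0.48 and the groups overlapped (exact permutation p = 0.20). TEAD1 made up 38.7%, 37.2% and 36.7% of the sum after MK5 siRNA, against 51.3%, 25.6% and 21.6% after control siRNA. TEAD3 held 26.7%, 27.5% and 29.6% after MK5 siRNA, against 15.4%, 24.35% and 24.4% after control siRNA. TEAD4 held 14.4%, 13.9% and 13.5% after MK5 siRNA, against 15.5%, 19.2% and 22.7% after control siRNA. The groups were apart for the shares of TEAD3 and TEAD4 (exact permutation p = 0.10 each, adjusted over the 4 shares p = 0.20) and overlapped for those of TEAD1 and TEAD2 (exact permutation p = 0.70 and 0.40).

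VGLL4 was the member that rose. VGLL4 (ENSG00000144560) was at 102, 93.8 and 87.8 CPM after MK5 siRNA, against 23.0, 45.75 and 42.2 CPM after control siRNA. The groups were far apart, and control replicate 1 was the lowest library. VGLL4 averaged 94.57 ± 7.196 CPM after MK5 siRNA and 37.0 ± 12.2 CPM after control siRNA, and rose by 1.35 ± 0.25 (edgeR adjusted p = 0.00512), a 2.56-fold higher level. The rise was 2.13 in pair 1 and 1.03 and 1.05 in pairs 2 and 3, and 14.1% of all genes tested had a larger absolute log2 fold change. In GENCODE release 29, exons of ATG7, an autophagy gene, overlap those of VGLL4 on the opposite strand, and no source used here gives the strand setting of the counting. ATG7 averaged 36.3 ± 1.76 CPM after MK5 siRNA and 40.7 ± 8.30 CPM after control siRNA, with overlapping groups (−0.17 ± 0.17, edgeR adjusted p = 0.439). In control replicate 1 both genes were at their lowest, ATG7 at 31.2 CPM. Exons of TEAD2 likewise overlap CD37, a leukocyte tetraspanin gene, which had at most 3.50 CPM in any library.

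VGLL3 (ENSG00000206538), a TEAD cofactor of the same family, was at 78.7, 40.3 and 39.8 CPM after MK5 siRNA, against 173, 85.2 and 68.95 CPM after control siRNA. Replicate 1 was the highest library of both groups, and MK5 siRNA replicate 1 lay between control replicates 2 and 3. The log2 fold change of −1.04 ± 0.41 did not pass in the fit without a block (edgeR adjusted p = 0.0777). The pairs gave −1.13, −1.07 and −0.79, and the fit with the replicate number as a block, −1.004, passed (edgeR adjusted p = 0.00543). Without replicate 1 in both groups it also passed, at −0.94 (edgeR adjusted p = 4.45e-09), where 75.8% of all genes passed. Without control replicate 1 alone it was −0.54 (edgeR adjusted p = 0.130). The other VGLL genes were hardly present: VGLL1 had no count after MK5 siRNA and 1 in all control libraries, and VGLL2 had at most 5 counts in any library.

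**Figure D3:**
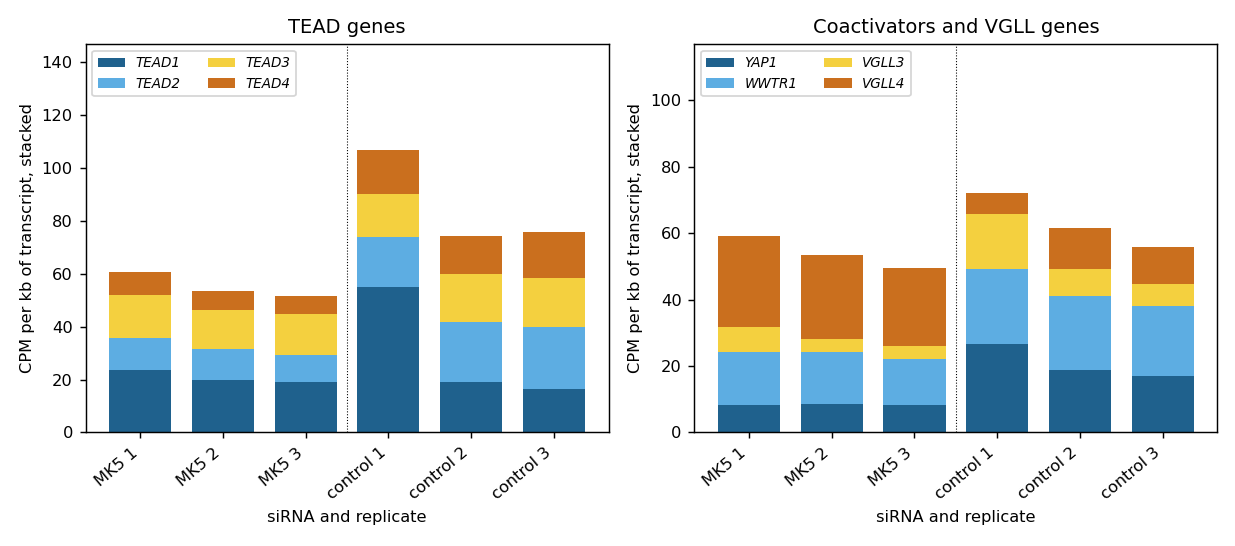
Stacked levels in CPM per kb of the longest coding transcript (vertical axis from 0) in each library, MK5 siRNA left of the dotted line and control siRNA right of it. The left panel shows the 4 TEAD genes and the right panel the coactivators and VGLL genes; the VGLL4 segment is 23.6 to 27.4 CPM per kb after MK5 siRNA, against 6.18 to 12.3 CPM per kb after control siRNA.

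The level of VGLL4 was set against that of the coactivators, both per kb of the longest coding transcript. The log2 ratio of VGLL4 to the sum of YAP1 and WWTR1 was 0.17, 0.05 and 0.08 after MK5 siRNA, against −2.90, −1.70 and −1.70 after control siRNA. The groups were apart, and control replicate 1 was the lowest. The ratio was higher by 2.20 after MK5 siRNA (exact permutation p = 0.10, the smallest possible), by 3.07, 1.75 and 1.79 in pairs 1, 2 and 3, and by 1.77 without replicate 1 in both groups. The size of the ratio itself depends on the lengths used, since VGLL4 has 3725 bases in its longest coding transcript and 7236 in its merged exons.

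By level per kb of the longest coding transcript, the order after MK5 siRNA was VGLL4 (25.4 ± 1.93), TEAD1 (20.8 ± 2.39), TEAD3 (15.4 ± 0.724), WWTR1 (15.35 ± 1.07), TEAD2 (11.4 ± 0.911), YAP1 (8.24 ± 0.183), TEAD4 (7.71 ± 0.908) and VGLL3 (5.09 ± 2.14), in CPM per kb. Neighbours overlapped over libraries at TEAD3 and WWTR1, at YAP1 and TEAD4, and at TEAD4 and VGLL3. After control siRNA it was TEAD1 (30.1 ± 21.5), WWTR1 (21.9 ± 0.766), TEAD2 (21.9 ± 2.48), YAP1 (20.8 ± 5.14), TEAD3 (17.7 ± 1.08), TEAD4 (16.0 ± 1.55), VGLL3 (10.5 ± 5.37) and VGLL4 (9.93 ± 3.28), and every pair of neighbours overlapped. With merged exon lengths VGLL4 was again the lowest after control siRNA, at 5.11 ± 1.69 CPM per kb. After MK5 siRNA it then ranked 3, at 13.1 ± 0.994 CPM per kb, below TEAD1 (17.1 ± 1.97) and TEAD3 (15.1 ± 0.709). WWTR1 also moved with the length used. With merged exon lengths it ranked 5 in both groups, in place of 4 after MK5 siRNA and 2 after control siRNA. After MK5 siRNA it then lay below TEAD2, at 9.175 ± 0.643 against 9.31 ± 0.746 CPM per kb.

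**Figure D4:**
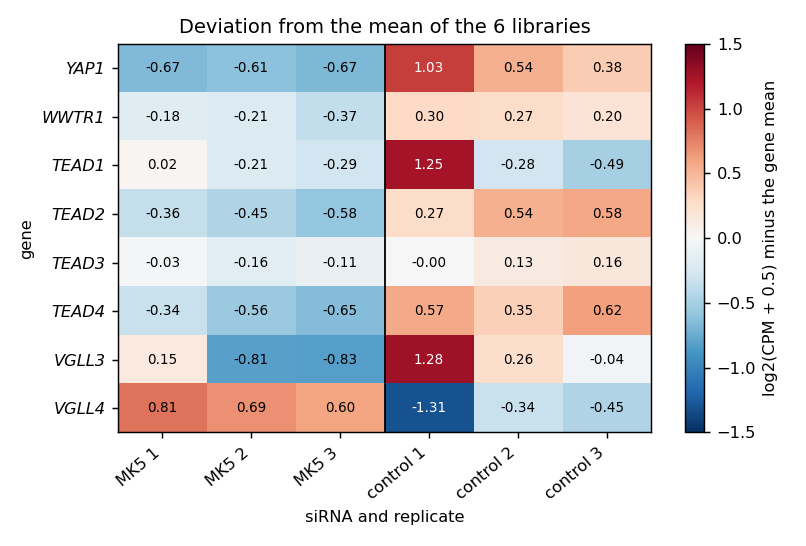
Deviation of each gene's log2(CPM + 0.5) from its mean over the 6 libraries (colour and printed value), MK5 siRNA libraries left of the line and control libraries right of it. VGLL4 runs opposite to YAP1 in all 6 libraries, and the strongest values of YAP1, TEAD1, VGLL3 and VGLL4 are those of control replicate 1.

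Across the 6 libraries, which share the siRNA contrast, YAP1 correlated with VGLL4 at a Pearson r of −0.983 and with WWTR1 and TEAD4 at 0.957 and 0.935, on log2(CPM + 0.5). TEAD2 correlated with TEAD4 at 0.960 and with TEAD3 at 0.921. TEAD1 correlated with VGLL3 at 0.787 and with TEAD2 and TEAD3 at 0.093 and −0.148. These are descriptions over 6 points in 2 groups. Within the control group, replicate 1 against the mean of replicates 2 and 3 was higher in TEAD1 (1.63), VGLL3 (1.17) and YAP1 (0.57), lower in VGLL4 (−0.92) and TEAD2 (−0.29), and close to them in WWTR1 (0.06) and TEAD4 (0.08), on the log2 scale. The median absolute deviation of that library was 0.37 over all genes tested. Within the MK5 siRNA group, VGLL3 in replicate 1 deviated by 0.97, which 1.504% of all genes tested exceeded, and the other 7 genes by at most 0.27.

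The genes whose centred profiles lay closest to those of the members that passed were sought among 10482 genes of at least 5 CPM, by root mean square distance over 6 libraries. Nearest to YAP1 were MRE11, a nuclease of DNA break repair (distance 0.0604), CDC42SE2 (0.0635) and TFAM, a mitochondrial transcription factor (0.0663). Nearest to WWTR1 were TAGLN2 (0.0439), DARS (0.0445) and the noncoding RNA GAS5 (0.0466). Nearest to TEAD2 were CRISPLD1 (0.0384), KYAT3 (0.0429) and SHISA4 (0.0492), and nearest to TEAD4 were MARCKSL1 (0.0675), the actin crosslinker ACTN1 (0.0728) and TRIM59 (0.0832). Nearest to VGLL4 were FAM35A (0.0748), CLIP2 (0.0881) and NFKBIL1 (0.0884). No member was among the nearest genes of another.

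**Figure D5:**
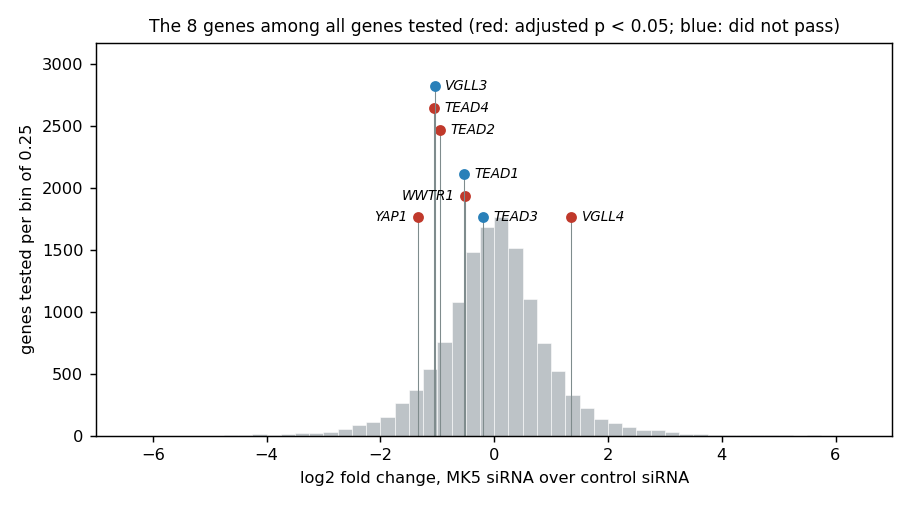
Number of tested genes (vertical axis) per bin of log2 fold change, MK5 siRNA over control siRNA (horizontal axis, bins of 0.25), with the 8 genes placed at their own values and spread in height for legibility. Red circles passed at an adjusted p below 0.05 and blue circles did not; YAP1 at −1.34 and VGLL4 at 1.35 lie farthest from 0.

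The genes around these factors were read from lists, each against the 46.2% of all genes tested that passed. Upstream, LATS1 and LATS2 transcripts were still counted and did not pass (0.14 ± 0.19 and 0.10 ± 0.18, edgeR adjusted p = 0.583 and 0.689), and a transcript count does not show an edit. Of 29 upstream Hippo genes, 10 fell and 1 rose (37.9% passed), with a median log2 fold change of −0.19. The angiomotin gene AMOT fell by 2.24 (SE 0.48), and AMOTL2, also on the target list below, fell by 2.13 (SE 0.10). The atypical cadherin gene FAT1 fell by 1.58 (SE 0.16). The kinase adaptor gene SAV1 fell by 1.27 (SE 0.13), and MOB1B, which encodes a LATS coactivator, fell by 1.31 (SE 0.17). EdgeR adjusted p was between 0.000148 and 0.00891 for these 5 genes. The gene that rose was RASSF1 (0.56 ± 0.15, edgeR adjusted p = 0.0202). It did not pass with any single library left out other than control replicate 1 (edgeR adjusted p between 0.0557 and 0.0786). The other 18 genes did not pass. Among them were relatives of the named genes: MOB1A (−0.13, edgeR adjusted p = 0.755), AMOTL1 (0.41, edgeR adjusted p = 0.296) and FAT4 (0.03, edgeR adjusted p = 0.87). The direction of MOB1A rested on control replicate 1, at 97.2 CPM against 44.8 and 41.6 CPM in control replicates 2 and 3. Its value was 0.37 when that library was left out (edgeR adjusted p = 0.00621). Without control replicate 1, 13 fell and 4 rose, in a fit in which 64.4% of all genes passed.

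Of 18 tested genes for the turnover and cytoplasmic retention of YAP and TAZ, 7 fell and 2 rose; the median was 0.023. The 14-3-3 genes, whose proteins hold phosphorylated YAP and TAZ in the cytoplasm, fell in all 6 tested of 7 listed, against 23.7% of all genes, from −0.44 in YWHAH to −0.89 in YWHAZ. YWHAZ was at 607 ± 27.6 CPM after MK5 siRNA and 1125 ± 28.5 CPM after control siRNA (edgeR adjusted p = 0.000735). Among the casein kinase 1 genes, forms of which phosphorylate the YAP degron, CSNK1D rose by 0.38 ± 0.12 (edgeR adjusted p = 0.0354) and CSNK1A1 by 0.36 ± 0.10 (edgeR adjusted p = 0.0254), and CSNK1E did not pass (0.19 ± 0.12, edgeR adjusted p = 0.235). With the replicate block CSNK1D no longer passed (0.38, edgeR adjusted p = 0.0702) and CSNK1A1 did (0.35, edgeR adjusted p = 0.0456). Neither passed without a filter on low counts (edgeR adjusted p = 0.0600 for CSNK1D and 0.0644 for CSNK1A1), nor with any single library left out other than control replicate 1. SKP1, a subunit of the SCF ubiquitin ligase, fell by 0.89 (SE 0.09, edgeR adjusted p = 0.000628), and the 5 other SCF genes listed, BTRC, FBXW11, FBXW7, CUL1 and RBX1, did not pass. These subgroups were singled out after their values were seen. The count moved with the library left out, as did the share of all genes that passed. Without MK5 siRNA replicate 2, 3 genes fell and none rose, where 30.5% of all genes passed, and without MK5 siRNA replicate 3, 4 fell and none rose, where 31.2% passed. In neither fit, therefore, did all 6 of the 14-3-3 genes pass. Without control replicate 1, 7 fell and 5 rose, where 64.4% passed.

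Among 22 tested nuclear partners of YAP, TAZ and TEAD, 7 rose and 6 fell (59.1% passed), with a median of 0.084. The AP-1 subunit genes, whose products bind beside TEAD at many enhancers, moved in both directions: of 6 tested, 3 rose, 1 fell and 2 did not pass, against 22.5% and 23.7% of all genes that rose and fell. FOS rose by 4.71 ± 1.05, JUNB by 1.78 ± 0.26 and JUND by 1.07 ± 0.24, while FOSL1 fell by 1.29 (SE 0.26; edgeR adjusted p between 0.00209 and 0.0112 for these 4). JUN (−0.50, edgeR adjusted p = 0.153) and FOSL2 (−0.02, edgeR adjusted p = 0.932) did not pass. FOS was at 29.7, 3.58 and 3.27 CPM after MK5 siRNA, against 0.613, 0.405 and 0.366 CPM after control siRNA, so that replicate 1 carried most of its level. JUNB (69.7, 37.6 and 38.4 CPM after MK5 siRNA) and JUND (244, 139.8 and 140.4 CPM) were highest in the same library. FOSL1 was at 183 ± 5.58 CPM after MK5 siRNA and 449 ± 177 CPM after control siRNA. RUNX2, a partner of TAZ, rose by 1.105 ± 0.17 (edgeR adjusted p = 0.00229), and the transcriptional corepressor gene IRF2BP2 by 0.57 ± 0.10 (edgeR adjusted p = 0.00345). NCOA3, by 0.69 ± 0.11 (edgeR adjusted p = 0.00285), and EP300, by 0.35 ± 0.115 (edgeR adjusted p = 0.0408), rose too. EP300 did not pass with RLE scaling (edgeR adjusted p = 0.0513), without a filter on low counts (edgeR adjusted p = 0.0996) or in DESeq2 (DESeq2 adjusted p = 0.0568). Nor did it pass with any single library left out other than control replicate 1. ARID1A fell by 0.83 (SE 0.13, edgeR adjusted p = 0.00251) and SMAD3 by 0.69 (SE 0.15, edgeR adjusted p = 0.0104), as did ZEB1, MED1 and CREBBP by less. CREBBP did not pass with any single library left out other than control replicate 1 (edgeR adjusted p between 0.0618 and 0.109). MED1 did not pass without MK5 siRNA replicate 2 or without MK5 siRNA replicate 3 (edgeR adjusted p = 0.0555 and 0.0702). RUNX1 did not pass (−0.45, edgeR adjusted p = 0.0887).

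Downstream, 15 of 22 YAP and TAZ target genes of a published signature fell and none rose, against 23.7% and 22.5% of all genes, with a median of −1.22. Their summed level was between 4621 and 5534 CPM after MK5 siRNA, against between 11240 and 16670 CPM after control siRNA. ANKRD1, CYR61 and FJX1 had the largest falls among these genes, with log2 fold changes of −3.79 ± 0.41, −2.44 ± 0.41 and −2.39 ± 0.12 and edgeR adjusted p between 0.000178 and 0.00358. Leaving out single libraries gave between 12 and 17 passing genes, where between 30.5% and 64.4% of all genes passed. The absence of a rise depended on the fit. With the replicate block 14 fell and 1 rose, where 47.3% of all genes passed. Without control replicate 1, 16 fell and 1 rose, where 64.4% passed. Without replicate 1 in both groups, 18 fell and 2 rose (20 passing), where 75.8% passed. The genes that then rose were FOXF2, IGFBP3 or both.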

How the data were processed

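The data were 6 RNA-seq libraries, 3 per group. The deposited table holds whole-number counts per gene, although its name speaks of CPM. Per the labels' protocols, libraries were made from total RNA with a TruSeq V2 kit, and the submitters' processing notes list HTSeq 0.9.1, TopHat2 2.1.1, Trimmomatic 0.36, FastQC and the build GRCh37, with no order. No source used here gives the annotation release or the strand setting.

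Genes were filtered with filterByExpr of edgeR 4.0.16 (R 4.3.3), with a minimum count of 10 and a minimum total of 15. Libraries were scaled by TMM, and edgeR ran the quasi-likelihood test of MK5 siRNA over control siRNA without a block, with Benjamini-Hochberg adjustment over all genes. The standard error is the log2 fold change divided by the square root of F. The test was checked on simulated counts. Ratios and sums of members were compared by two-sided exact permutation tests in scipy 1.17.1. Alternatives were RLE and upper-quartile scaling, DESeq2 1.42.0, limma 3.58.1 with pseudocounts of 0.5 and 2, other filters, a replicate block and left-out libraries. The merged exon lengths, the TEAD pairs, the TEAD shares and the promoter motifs were added after the data were seen.

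Same-numbered libraries deviated together from their group means (r = 0.258, 0.206 and 0.248), each above 0.1. Differences within replicate pairs and a fit with the replicate block are therefore given as well. The main fit and the exact permutation tests took no account of pairs. Differently numbered libraries correlated at 0.182 and 0.151 between replicates 2 and 3 and below 0 with replicate 1, so the numbers set replicate 1 apart more than they separate 2 from 3. The pairing comes from the data, as no label ties a number to a day or batch. The series' design text calls the replicates biological, and no label says whether they were separate cultures, so p-values measure the spread between these libraries. Members and lists were chosen with earlier results of these data known. The named genes are the members, MAPKAPK5, LATS1 and LATS2, the 3 largest passing changes of at least 5 CPM in each list, and the 3 genes most like each passing member; other list genes named were chosen after their values were seen. Transcript lengths and overlaps are from GENCODE release 29 (GRCh38, not the build of the counts), matched by gene identifier for all 8 members.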

Additional observations from a re-analysis of the deposited data

How the results depend on the processing

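Of 259 values recomputed under alternatives, 244 kept their direction and call, or for counts stayed within 1.5 times. The 244 include every recomputed value of the WWTR1 to YAP1 ratio (10), the VGLL4 ratio (12) and the TEAD sum (12). With so few libraries the exact tests of these ratios and this sum could not pass in any setting. Only their direction could therefore have changed, not their call. YAP1 (−1.49 to −1.11), WWTR1 (−0.56 to −0.45), TEAD2 (−1.09 to −0.88), TEAD4 (−1.15 to −0.95), VGLL4 (1.05 to 1.52) and MAPKAPK5 (−1.09 to −0.92) passed in the same direction under every alternative run. TEAD1 ranged from −0.86 to 0.24 with 1 library left out; it turned to 0.24 without control replicate 1 and to 0.14 without replicate 1 in both groups. TEAD3 ranged from −0.24 to −0.16 with 1 library left out and passed without control replicate 1, and at −0.28 without replicate 1 in both groups. VGLL3 ranged from −1.44 to −0.54 with 1 library left out. It passed without control replicate 3 or MK5 siRNA replicate 1, in DESeq2 (−1.06), with the replicate block (−1.004) and without replicate 1 in both groups (−0.94). The replicate block changed no other member's call, and with it 6 of the 8 genes passed. The cause was not tested.

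Without replicate 1 in both groups, 10372 genes passed in place of 6206, which is 75.8% of all genes tested in place of 46.2%. In that fit 17 of the 29 upstream Hippo genes passed, and 20 of the nuclear partners, of which the main fit tested 22. With 1 library left out, between 4167 and 8874 genes passed (30.5% to 64.4% of all genes tested), with 5 to 6 of the 8 members. The lists then gave 8 to 17 upstream Hippo genes, 3 to 12 turnover and retention genes and 9 to 18 nuclear partners. The WWTR1 to YAP1 ratio, the VGLL4 ratio and the TEAD sum kept their direction under every alternative run. No alternative was run for the TEAD pair ratios and shares, and exact tests of 3 against 3 libraries cannot go below 0.10.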
